A study of Mus musculus with 4 samples.

Results

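Growth hormone (GH) and insulin-like growth factor (IGF) axis genes were examined as a set of 10 genes, chosen by name for their place in the pathway: Ghr, Jak2, Stat5a, Stat5b, Socs2, Cish, Igf1, Igfals, Igfbp1 and Igfbp2. They are 10 of 15943 protein-coding genes that had enough counts to be compared, out of 21728 protein-coding genes in the annotation. All 10 passed the minimum, a mean of at least 50 counts after the libraries were scaled to the total of the smallest one.

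GH from the pituitary binds its receptor on hepatocytes, and the receptor-bound kinase JAK2 phosphorylates STAT5, which enters the nucleus and binds DNA. STAT5 turns on the gene of IGF1, the main circulating growth factor made by the liver, and also the genes of SOCS2 and CISH, which dampen the receptor in return. In the blood IGF1 is carried by IGF binding proteins together with the acid-labile subunit encoded by Igfals, while IGFBP1 and IGFBP2 are liver-derived binding proteins known to follow fasting and insulin.

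Chromatin accessibility was measured by single-nucleus ATAC-Seq (scATAC-Seq), in which the Tn5 transposase cuts open DNA and a droplet barcode marks the nucleus. Nuclei came from hepatocytes of adult male C57BL/6J mice on a normal diet, labelled 10 to 12 weeks old, whose livers were perfused with collagenase. The methods give a somewhat younger age at surgery than the labels do. In the group called 0 h the liver was undamaged, and in the others most of it had been cut away by partial hepatectomy (PHx) 48, 72 or 96 h earlier. The labels name no transgene or deletion in any group. Each time point had 1 library. A single preparation of hepatocytes served for 0 h and another for 48 h. The study took hepatocytes from several mice at each time, and how those of 72 and 96 h were divided among its assays is not stated. Library and time point therefore cannot be told apart, no p-value is given, and the 95% Poisson intervals below cover counting error only.

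The libraries differed in depth and in how much was called as peaks. Between 3224 and 4256 barcodes per library had at least 1000 counts, and their median count was 26005 at 0 h, 11629 at 48 h, 4841 at 72 h and 3682 at 96 h. Peaks had been called in each library separately and covered 154, 179, 141 and 60.9 Mb in that order. Across all genes the log2 ratio of counts followed the log2 ratio of covered peak length (r = 0.88, 0.91 and 0.85 at 48, 72 and 96 h, across 15656 to 15891 genes that share the same libraries). For this reason the covered length is given with the level of each axis gene. In sums over barcodes, fewer nuclei with an open site and fewer cuts per nucleus cannot be told apart. Between 833 and 1066 barcode sequences of a library also occurred in another library. Over 10 hepatocyte marker genes the summed level was between 3764 and 5443 counts per 1000000 counts of the library (CPM), with none at 0, so the labelled cell type showed its markers in every library.

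A STAT5 dimer recognises the letters TTCNNNGAA, called a GAS element, and pairs of such elements are known from GH target genes. The letters read the same on both strands and were searched in the peaks of the 96 h library, which cover the least sequence. This search of peaks and of pairs in them was added after the data were seen. They occurred 0.306 times per kb over all 77580 peaks, and 19.0% of peaks held at least 1. The peaks of Cish held 7 matches (1.98 per kb), those of Stat5a 4 (1.20 per kb), of Socs2 5 (0.914 per kb), of Igf1 12 (0.787 per kb) and of Igfals 4 (0.688 per kb). The peaks of Stat5b (0.126 per kb) and Igfbp1 (0.109 per kb) held 1 match each, fewer per kb than all peaks did. Jak2 had 0.613, Ghr 0.501 and Igfbp2 0.343 matches per kb.

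Pairs of matches that started within 20 bp of each other were rare, with 97 such pairs in the whole peak set and 0.121% of peaks holding 1. Of the 10 genes, Cish had 2 of these pairs, Socs2 had 1 and Igf1 had 1. The 4 pairs are shown because they lie in the pathway's own target genes, read 5′ to 3′ in the direction of transcription from the GRCm38.p6 genome of RefSeq, with the matches in capitals.
Socs2, 257 bp into the gene, chr10:95416899-95416928, minus strand, outside annotated exons: gcggaTTCCTGGAAagTTCCTGGAAagcgg
Cish, 633 bp into the gene, chr9:107296654-107296683, plus strand, overlapping an exon: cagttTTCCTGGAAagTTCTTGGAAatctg
Cish, 738 bp into the gene, chr9:107296762-107296791, plus strand, overlapping an exon: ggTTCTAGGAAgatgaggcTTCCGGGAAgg
Igf1, 43869 bp into the gene, chr10:87902131-87902160, plus strand, outside annotated exons: cagTTCTCAGAAaggaaaTTCGCAGAAgtg
The Socs2 pair and the first Cish pair had the same spacing, 11 bp from start to start, as did 12 of all 97 pairs. Over the 20 bases from the first to the last base of the pair they were alike at 19, with the single substitution C15T from Socs2 to Cish, counted from the first base of the pair. A match of letters is a description of the sequence and not of STAT5 binding.

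RefSeq windows from 250 bases before to 50 after a transcription start were available for 9 of the 10 genes, with 15 windows in all, and not for Socs2. Each of the 15 windows lay wholly in peaks in every library. Of all 32851 such windows, 8.30% held TTCNNNGAA, 3.65% held TGTTTAC (the letters bound by FOXO factors), 0.00913% held the HNF1 consensus and 2.51% held CAAAACAA (the core of the insulin response sequence, added after the data were seen), searched on both strands. Among the genes studied here only the windows of Cish and Igfals held a GAS match, and in Cish these were the 2 matches of the first pair, at bases 0 to 8 and 11 to 19 from the RefSeq start. In Igfals 1 match began 236 bases before a start (chr17:24877608-24877616, TTCTCAGAA) and another 58 bases before a second start (chr17:24878173-24878181, TTCCTAGAA), whose window also held TGTTTAC. Igfbp1 held CAAAACAA 108 to 101 bases before its start. The stretches upstream of Igfbp1 and Igfbp2, the genes whose counts lay furthest below what their covered length gave at 72 h, follow, with that match in capitals and with none of the 4 letter patterns in Igfbp2.
Igfbp1, chr11:7197537-7197781, plus strand: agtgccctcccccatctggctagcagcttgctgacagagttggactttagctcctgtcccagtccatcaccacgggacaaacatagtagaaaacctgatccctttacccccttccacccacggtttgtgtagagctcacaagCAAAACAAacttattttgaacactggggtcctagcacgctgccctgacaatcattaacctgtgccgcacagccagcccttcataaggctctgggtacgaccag
Igfbp2, chr1:72824230-72824479, plus strand: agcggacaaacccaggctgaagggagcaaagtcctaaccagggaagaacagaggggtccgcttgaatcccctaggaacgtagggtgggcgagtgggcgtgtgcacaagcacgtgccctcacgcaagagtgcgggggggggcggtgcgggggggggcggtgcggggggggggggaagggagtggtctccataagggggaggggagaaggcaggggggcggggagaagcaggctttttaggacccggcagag
The Igfbp2 stretch was the richer in G and C (67.2% of its 250 bases against 52.7% of the 245 bases of Igfbp1).

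The first question was which genes of the axis were more or less open during regeneration than in undamaged liver. Igfbp2 and Stat5b were lower than at 0 h at each time after PHx, Ghr was lower at 72 and 96 h, Igf1 was higher at 48 h and lower after it, and Jak2 and Socs2 had the smallest maximum difference from 0 h over the 3 times. Per kb of peak Stat5b was higher than at 0 h at 72 and 96 h (log2 0.16 and 1.05), as was Ghr (0.54 and 1.99). Igf1 had 5.32 CPM per kb over 53.0 kb at 0 h and 5.77 over 76.4 kb at 48 h. Where its peak had nearly the same length in both libraries, its log2 ratio at 48 h was -0.05. Igfals was higher at 48 h with whole peaks counted (log2 0.51) but not with each peak's count taken in proportion to its length inside the window (-0.14), which assumes even cutting along a peak. Binarised counts turned the sign of Igfbp2 at all 3 times, as given with that gene. No gene of the axis was at least 2-fold higher at any time, while 6.7% of all genes were at 48 h, 11.8% at 72 h and 6.15% at 96 h. At least 2-fold lower were 1 gene at 48 h (Igfbp2, with 1.89% of all genes as background), 2 at 72 h (Igfbp2 and Stat5b, 6.03%) and 3 at 96 h (Ghr, Stat5b and Igfbp2, 9.61%). With a limit of 1.5-fold, 2, 5 and 6 genes of the axis were lower (7.16%, 16.0% and 18.1% of all genes), and Igf1 alone was higher, at 48 h only (14.8% of all genes at that time, then 21.2% and 19.1%). The median log2 ratio of the 10 genes was -0.10, -0.58 and -0.65 at 48, 72 and 96 h, beside -0.03, 0.00 and 0.08 over all genes. Per kb of peak the medians were -0.20, 0.10 and 1.05, beside -0.21, 0.17 and 1.26 over all genes.

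**Figure D1:**
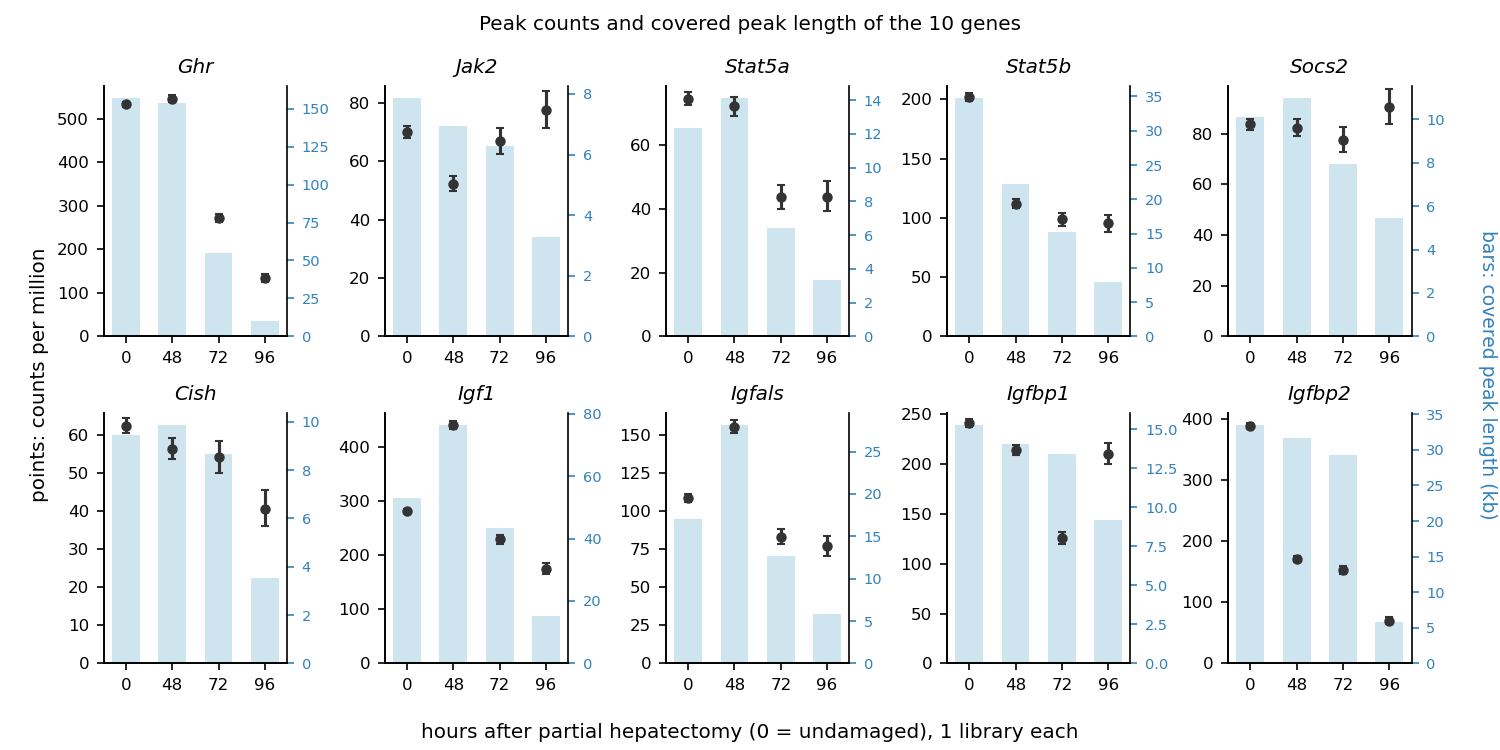
Peak counts of the 10 genes in each library. Points give CPM (left axis) with 95% Poisson intervals of the counts, bars the covered peak length in kb (right axis), and the 4 positions the time after PHx with 1 library each. Counts and bars move together for some genes, such as Igf1 and Igfals, while Igfbp2 at 48 and 72 h and Igfbp1 at 72 h have low points over high bars. From 72 to 96 h Jak2, Socs2 and Igfbp1 have higher points over lower bars.

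The receptor gene Ghr (chr15:3317760-3583492, minus strand) was the longest of the set and the one with the greatest covered peak length in undamaged liver. Its level was 533 CPM at 0 h, 546 at 48 h, 272 at 72 h and 134 at 96 h. The libraries of 0 and 48 h were close, 72 h was lower than both, and 96 h was the lowest (counting interval 126 to 143 CPM). Covered length went the same way, from 157 kb in 70 peaks at 0 h and 154 kb at 48 h to 55.3 kb at 72 h and 9.98 kb in 18 peaks at 96 h. The log2 ratios to 0 h were 0.03, -0.97 and -1.99 for counts and -0.03, -1.51 and -3.98 for length, so counts per kb of peak were higher in the later libraries (3.40, 3.55, 4.93 and 13.5 CPM per kb). At 48 h, over 16 regions of Ghr whose single peak had nearly the same length in both libraries, the log2 ratio was -0.0018. At 72 h Ghr had 1 such region, with a log2 ratio of 0.72, the opposite sign to the whole gene. Peaks within 1 kb of an annotated start gave another order, with 168 CPM over 37.5 kb at 0 h and 57.9 over 9.94 kb at 48 h, as the broad peaks of 0 h that touch a start count whole.

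Jak2 (chr19:29251828-29313080, plus strand), the kinase bound to the receptor, had 70.0 CPM at 0 h, 52.3 at 48 h, 66.9 at 72 h and 77.5 at 96 h. The 48 h library was the low one, and the others lay close together. The log2 ratios were -0.42, -0.07 and 0.15, over 7.87, 6.94, 6.30 and 3.27 kb of peaks. Its promoter alone had 46.0, 36.3, 49.8 and 56.8 CPM over 3.61, 3.56, 3.45 and 1.55 kb, with 48 h again the lowest and 72 h above 0 h (log2 0.12).

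The STAT5 genes lie next to each other on chromosome 11 and point away from each other. Stat5a (chr11:100859351-100885169, plus strand) had 74.7 CPM at 0 h and 72.3 at 48 h, then 43.7 at 72 h and 43.9 at 96 h. Its libraries formed a high pair and a low pair, and covered length was 12.3, 14.1, 6.44 and 3.34 kb. At the gene start, where 1 peak lay in every library, the levels were closer together (31.6, 21.9, 25.8 and 26.2 CPM over 2.87, 2.59, 2.60 and 1.78 kb). At 0 and 48 h the last peak of Stat5a ran past its end towards Stat3, and with counts taken in proportion to the length inside the window the log2 ratios were -0.10, -0.40 and -0.40 in place of -0.05, -0.77 and -0.76.

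Stat5b (chr11:100780731-100850724, minus strand), the form of STAT5 that prevails in liver, had 202 CPM at 0 h, 112 at 48 h, 98.7 at 72 h and 95.3 at 96 h. The undamaged library stood apart from the 3 regenerating ones, which lay near each other. The count ratios were 1.80-fold, 2.04-fold and 2.12-fold lower (log2 -0.85, -1.03 and -1.08), with log2 length ratios of -0.65, -1.19 and -2.13 (34.8, 22.2, 15.3 and 7.95 kb). Counts per kb were 5.80, 5.05, 6.47 and 12.0 CPM. Much of the difference lay inside the gene. A region inside it that holds an internal start (chr11:100814201-100823229) had 64.5 CPM in 1 peak of 9029 bp at 0 h, and 36.3, 29.4 and 23.3 CPM in 3 or 4 peaks of 7385, 5573 and 2533 bp later. The peak at the gene start had 34.2, 22.5, 22.1 and 31.7 CPM over 4.17, 3.61, 2.37 and 1.36 kb. There the 96 h library was near the undamaged one in counts and far above it per kb (8.19 CPM per kb at 0 h and 23.3 at 96 h).

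Of the feedback inhibitor genes, Socs2 differed least between libraries. Socs2 (chr10:95385362-95417180, minus strand) had 83.7 CPM at 0 h, 82.4 at 48 h, 77.5 at 72 h and 90.5 at 96 h, and the intervals of 0 and 96 h overlapped. Most of this came from the single broad peak at the gene start that holds the GAS pair printed above, with 66.0, 62.6, 58.6 and 77.4 CPM over 7.07, 7.03, 4.92 and 4.83 kb. Cish (chr9:107296026-107302784, plus strand) had 62.4, 56.3, 54.0 and 40.6 CPM over 9.46, 9.87, 8.68 and 3.54 kb, with the 96 h library the lowest. The last peak of Cish, counted whole, lay mostly past the gene end. It had 15.5, 19.2 and 19.1 CPM over 4.27, 4.45 and 4.32 kb at 0, 48 and 72 h, with no peak at 96 h. The start peak of Cish, which holds both GAS pairs, had 42.6, 32.5, 31.5 and 37.7 CPM over 4.46, 4.35, 3.81 and 3.22 kb, so at the start 96 h was second to 0 h. The Cish window also holds parts of the gene models Gm17040 and Gm17041, whose counts cannot be separated from it.

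Igf1 (chr10:87858265-87937042, plus strand), the principal GH target, was the gene of the set that was highest at 48 h relative to 0 h. Its level was 282 CPM at 0 h, 441 at 48 h, 229 at 72 h and 175 at 96 h. Only the 48 h library lay above the undamaged one. Covered length was 53.0, 76.4, 43.4 and 15.2 kb, so the log2 count ratios of 0.65, -0.30 and -0.68 stood beside log2 length ratios of 0.53, -0.29 and -1.80. Counts per kb of peak were 5.32, 5.77 and 5.28 at 0, 48 and 72 h, nearly level, and 11.5 at 96 h. In the 1 region whose single peak had nearly the same length at 0 and 48 h, the log2 ratio at 48 h was -0.05. Of its regions with counts at 0 h, the one at the 3′ end (chr10:87928476-87940220) had the highest ratio at 48 h. It had 3.79 CPM over 1165 bp at 0 h, 38.7 over 11745 bp at 48 h, 6.75 over 1933 bp at 72 h and no peak at 96 h. Per kb of peak its 2 peaks of 0 h had 3.84 and 2.30 CPM, and its 1 peak of 48 h, which ran past the gene end, had 3.30. The peak over the GAS pair was 2.35 kb long with 10.4 CPM at 0 h and part of a 7.89 kb peak with 51.1 CPM at 48 h, and had 7.44 CPM over 1.22 kb and 5.42 CPM over 0.614 kb later. Igf1 shares its window with the antisense gene model Igf1os, and accessibility has no strand.

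Igfals (chr17:24865997-24882010, plus strand), which encodes the acid-labile subunit of the circulating IGF complex, had 109 CPM at 0 h, 155 at 48 h, 83.2 at 72 h and 76.9 at 96 h. As for Igf1, 48 h was the high library. The second peak ran on past the gene end at 48 h, and where in it the cuts lay is not known from counts per peak. Covered length was 17041, 28149, 12690 and 5813 bp. With counts in proportion to the length inside the window the log2 ratios were -0.14, -0.18 and -0.28 in place of 0.51, -0.39 and -0.50. The window of Igfals also overlaps the neighbouring gene Hagh. In the 96 h library the peak from 10120 to 13818 bp after the GENCODE start, with 56.8 of the 76.9 CPM, was the one that holds the RefSeq starts and the GAS matches given above.

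**Figure D2:**
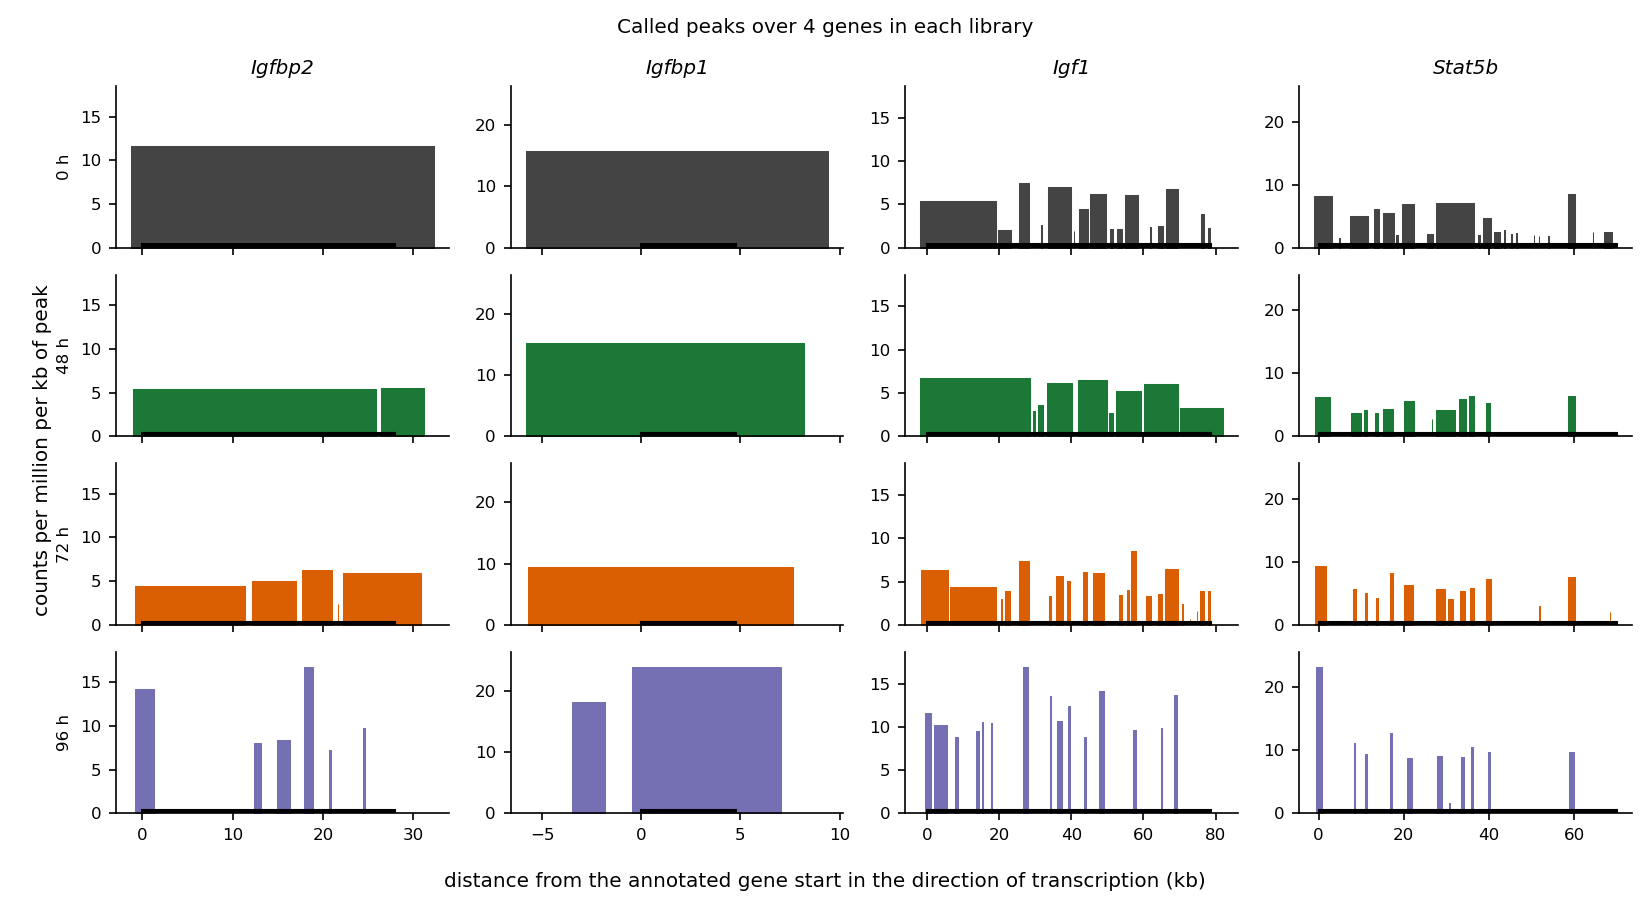
Called peaks over Igfbp2, Igfbp1, Igf1 and Stat5b. Each filled block is 1 peak, its width the distance from the annotated gene start in kb, its height the CPM per kb of peak, and the black line the gene body. Igfbp2 has 1 block of 11.6 CPM per kb at 0 h and lower blocks over nearly the same stretch at 48 and 72 h (5.41 and 5.22 CPM per kb in all).

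Igfbp2 (chr1:72824503-72852474, plus strand), a binding protein made by hepatocytes, had 389 CPM at 0 h, 171 at 48 h, 153 at 72 h and 69.8 at 96 h. All 3 regenerating libraries were far below the undamaged one, by 2.27-fold, 2.54-fold and 5.55-fold, and the log2 ratios of -1.18, -1.35 and -2.47 lay at percentiles 1.30, 3.24 and 2.38 of all genes. At 48 and 72 h the covered length differed less than the counts. Peaks covered 33.5 kb at 0 h (a single peak over the whole gene), 31.6 kb at 48 h and 29.2 kb at 72 h, and counts per kb were 11.6, 5.41 and 5.22 CPM. Among the genes whose covered length changed by at most 20%, 7 of 7915 (0.0884%) were at least 2-fold lower at 48 h and 10 of 6273 (0.159%) at 72 h. At least 2-fold higher were 0.0758% and 1.51% of these genes. Of the axis genes in these sets, 7 at 48 h and 3 at 72 h, Igfbp2 was the 1 that was that low, and none was 2-fold higher. At 96 h no axis gene kept its length, and of the 587 genes that did 59.5% were 2-fold higher. At 96 h covered length was 5.84 kb and counts per kb were 11.9 CPM, so at that time the 2 ratios were alike (log2 -2.47 for counts and -2.52 for length). With each barcode thinned to 1000 counts, which sets all libraries to 1 depth per nucleus, the log2 ratios of Igfbp2 were -1.15, -1.38 and -2.19. With binarised counts, where a peak counts once per barcode however many cuts it holds, they were 0.47, 0.97 and 0.10, the opposite sign, and no time passed the 2-fold limit for lower. Igfbp2 had 1, 2, 5 and 6 peaks at 0, 48, 72 and 96 h, and their part in this was not tested.

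Igfbp1 (chr11:7197782-7202546, plus strand), a binding protein gene known to be induced in fasting and held down by insulin, had 241 CPM at 0 h, 214 at 48 h, 126 at 72 h and 210 at 96 h. The 72 h library alone was low, outside the interval of each of the others (119 to 132 CPM). This too was found with little change of length, since 1 peak covered 15.3 kb at 0 h, 14.1 kb at 48 h and 13.4 kb at 72 h. The log2 ratio at 72 h was -0.94 (1.92-fold lower), just short of the 2-fold limit, with a log2 length ratio of -0.19. At 96 h the peak was split in 2 blocks of 9.18 kb together, and Igfbp1 was 1.15-fold lower than at 0 h (log2 -0.20, and 0.26 in proportion to the length inside the window). Binarised, the log2 ratios of Igfbp1 were 0.38, 0.50 and 1.20, all of the opposite sign, with 1 peak each at 0, 48 and 72 h.

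Set against length, the order of the genes showed the same 2 departures. At 0 h Igfbp1 was the densest with 15.8 CPM per kb, followed by Igfbp2 with 11.6, Jak2 with 8.90 and Socs2 with 8.29, and the other 6 lay between 3.40 and 6.59. At 48 h Igfbp2 had 5.41 CPM per kb, between Igfals with 5.52 and Stat5a with 5.12, while Igfbp1 was still first with 15.2. At 72 h Jak2 (10.6) and Socs2 (9.78) lay above Igfbp1 (9.38 CPM per kb). Per kb of peak, Igfbp2 was the one gene of the axis that was at least 2-fold lower at 48 h and at 72 h, against 1.07% and 0.315% of all genes. No axis gene was that much higher at these times, with 0.17% and 2.1% of all genes. At 96 h none was 2-fold lower (0.0383% of all genes), and 6 of the 10 were at least 2-fold higher per kb, as were 72.2% of all genes, whose peaks were shorter at that time.

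**Figure D3:**
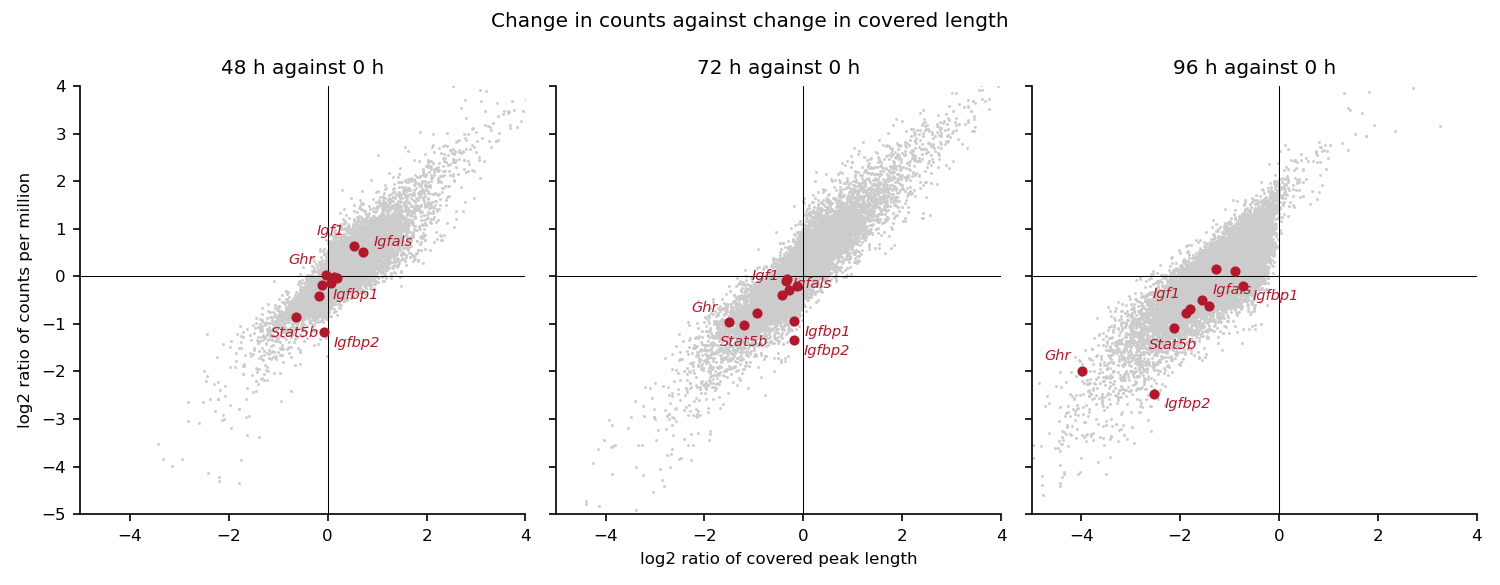
Change in counts against change in covered peak length. Each panel plots the log2 ratio to 0 h of CPM (vertical) against that of covered peak length (horizontal), with all genes in grey, the 10 axis genes in red and genes beyond the axes left out. Igfbp2 lies under the grey band at 48 and 72 h and Igfbp1 at 72 h.

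With the promoter alone (peaks within 1 kb of an annotated start), 3 genes were at least 2-fold lower at 48 h (Ghr, Stat5b and Igfbp2, with 2.77% of all genes), 4 at 72 h (these and Igf1, 8.05%) and 3 at 96 h (Ghr, Stat5b and Igfbp2, 12.5%). None was 2-fold higher (10.5%, 13.6% and 7.94% of all genes). With regions that held 1 peak of nearly equal length in both libraries, no axis gene with such a region was 2-fold lower at 48 or 72 h (0.193% and 0.343% of all genes) or 2-fold higher (0.278% and 2.56%). No axis gene had such a region at 96 h, where 59.1% of the genes that had one were 2-fold higher, and Igfbp2 had none at any time. Promoter peaks count whole, so their length differed between libraries. For Igfbp2 the log2 ratios were -1.42, -1.86 and -3.57 over 33.5, 26.9, 21.0 and 2.36 kb at 0, 48, 72 and 96 h, where the peak of 0 h is the one over the whole gene. For Stat5b they were -1.25, -1.53 and -1.23 over 13.2, 8.14, 4.48 and 2.45 kb. The promoter of Igf1 had 113 CPM over 21.05 kb at 0 h and 48.2 CPM over 7.62 kb at 72 h. At 72 h the next peak of Igf1, with 55.8 CPM over 12.7 kb, did not count as promoter.

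Hepatocytes near the central vein and near the portal vein differ in what they express, and the second question was whether the axis genes differed along that order within a library. Barcodes were ordered by the share of counts over 9 pericentral genes among those over 9 pericentral and 10 periportal genes, none of them an axis gene, and the tertile of barcodes at each end was summed. Igf1 and Igfbp2 were lower in the pericentral-high tertile in all 4 libraries, as were 10.6% of all genes. Stat5a, Socs2 and Igfbp1 had values above 0 in all 4, as did 19.1% of all genes. The counting intervals of Igf1 and Igfbp2 left out 0 in each library, whereas those of Stat5a at 0 and 72 h, Igfbp1 at 72 h and Socs2 at 96 h held it.

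For Igfbp2 the log2 ratio of the pericentral-high over the periportal-high tertile was -0.49 at 0 h, -0.63 at 48 h, -0.55 at 72 h and -0.43 at 96 h, on the periportal side each time. For Igf1 it was -0.38, -0.45, -0.50 and -0.25, also on the periportal side. The middle 90% of all genes ran from -0.35 to 0.36 at 0 h and from -0.47 to 0.51 at 96 h, so Igfbp2 was outside that range in 3 libraries and just inside it at 96 h. Igfbp1 was on the other side, with 0.38, 0.50, 0.12 and 0.23, beyond the range of all genes at 0 and 48 h. Igfals was near 0 at 0 and 48 h (0.01 and -0.02) and periportal at 72 and 96 h (-0.37 and -0.63). Socs2 had 0.20, 0.18, 0.52 and 0.21, and Stat5a 0.03, 0.17, 0.28 and 0.48. Pericentral-high barcodes were deeper than periportal-high ones at 0 h (medians of 38595 and 23833 counts). Within the interquartile range of depth, an alternative added after seeing the data, Igf1 stayed below 0 (-0.46, -0.45, -0.43 and -0.15), and Igfbp2 too (-0.34, -0.48, -0.59 and -0.15). At 96 h both were nearer 0 than in the tertiles of all barcodes (-0.25 and -0.43). Igfbp1 was pericentral in 3 libraries (0.55, 0.48 and 0.27) and at -0.03 at 96 h.

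**Figure D4:**
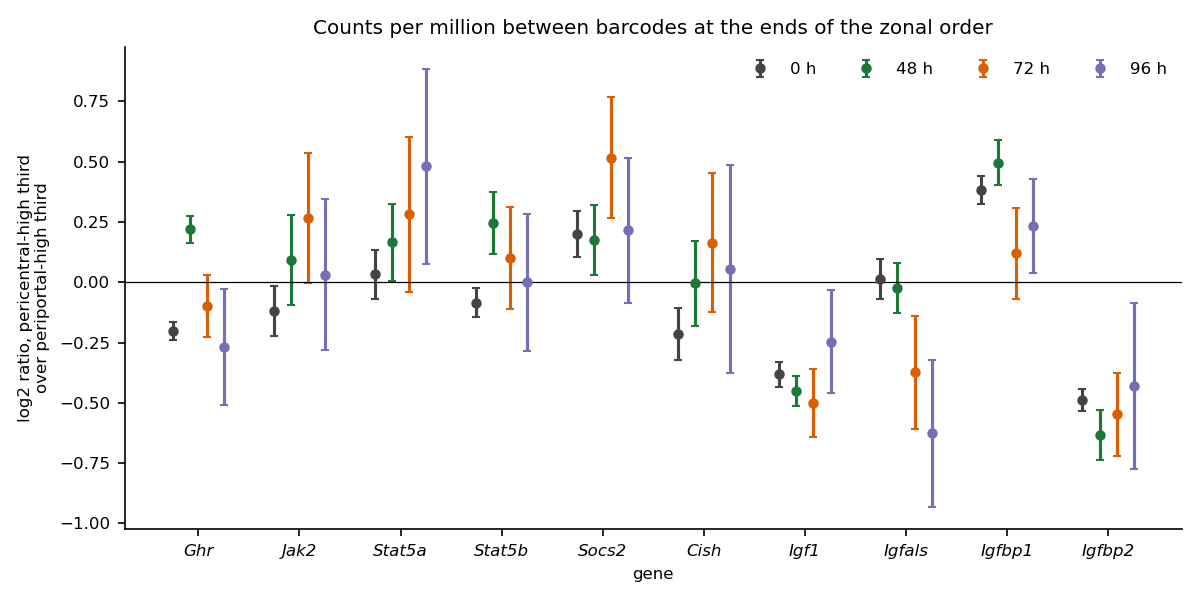
The axis genes along the zonal order of barcodes. Each point is the log2 ratio of CPM in the pericentral-high tertile over the periportal-high tertile of 1 library, coloured by time after PHx, with a 95% counting interval. Igf1 and Igfbp2 lie below 0 in all 4 libraries, Igfbp1 and Socs2 above it.

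Preparations of hepatocytes hold some other liver cells, and the third question was in which barcodes the axis genes were open. Barcodes with more counts over 30 endothelial, immune and mesenchymal marker genes than over 10 hepatocyte marker genes were taken as high in nonparenchymal markers. These were 148 barcodes at 0 h, 122 at 48 h, 274 at 72 h and 50 at 96 h, with between 0.600% and 2.76% of the counts, and 187 to 690 barcodes lay within 2-fold of the limit. Their median count was 3831.5, 2404.5, 2023.5 and 1483.5 at 0, 48, 72 and 96 h, below the library median each time. These barcodes and the rest therefore also differed in depth, and the part of depth in the contrasts below was not tested. In the nonparenchymal-high barcodes the hepatocyte marker sum was 431 CPM at 0 h against 4590 in the rest, and the endothelial sum 798 against 269. These sums use the genes that defined the class and are no separate check of it.

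At 0 h Igfbp1 had 14.6 CPM (5.37 to 31.9) in these barcodes and 243 in the rest. Igfbp2 had 31.7 against 391 and Igfals 12.2 against 109, so at 0 h these 3 genes were open mainly in the hepatocyte-high barcodes. For Igfals the contrast was within counting error later. Its intervals at 48 h (114 CPM, 75.3 to 165.1) and 72 h (61.5 CPM, 38.0 to 93.9) held the level of the rest (156 and 83.8), and at 96 h it had 11.1 CPM against 77.3, with an interval up to 103.8. At 0 h Ghr (181 against 535 CPM) and Igf1 (138 against 283) were lower but present in both, while at 72 h the intervals of Ghr (228 CPM, 180.4 to 284.9) and Igf1 (192 CPM, 148.1 to 244.1) held the rest (274 and 230.1). Stat5b was lower at 0 h (131 against 202), but had 149 against 112 at 48 h and 107 against 98.5 at 72 h, with intervals that held the rest. Jak2 was on the other side at 0 h, with 165 CPM (128 to 209) against 69.4. Cish, Socs2 and Stat5a at 0 h had intervals that held the level of the rest. At 72 h the contrast was smaller, with 55.6 against 128 CPM for Igfbp1 and 83.4 against 154 for Igfbp2. At 96 h Igfbp2 had 77.7 CPM (18.8 to 211.2) against 69.7, an interval that held the rest. Jak2 had 80.7 CPM (49.0 to 125.4) against 52.1 at 48 h, where the interval held the rest, and 99.5 (68.9 to 139.0) against 65.9 at 72 h. At 96 h the intervals of the 50 barcodes were wide, and that of Jak2 (76.7 to 349.9 CPM) held the level of the rest (76.9). The summed levels of endothelial markers over all barcodes were 272, 284, 367 and 223 CPM at 0, 48, 72 and 96 h, of immune markers 83.7, 160, 167 and 114, of mesenchymal markers 115, 172, 232 and 186, and of 6 cholangiocyte markers 129, 110, 109 and 101. Up to 6 of 10 genes of a list were at 0 in a library. The part of these cells in the results was not tested. With the nonparenchymal-high barcodes left out, the same number of axis genes was at least 2-fold lower at each time, 1, 2 and 3.

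**Figure D5:**
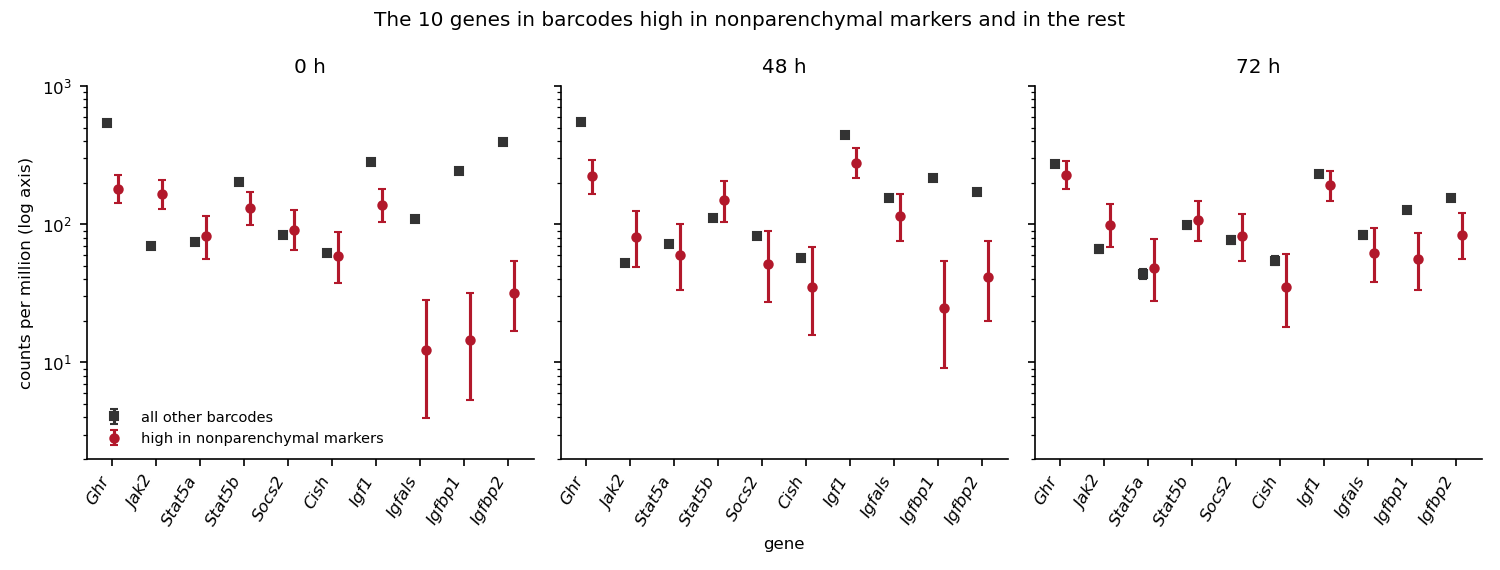
The axis genes in barcodes high in nonparenchymal markers (red circles) and in all other barcodes (black squares) at 0, 48 and 72 h, as CPM on a log axis with 95% Poisson intervals. At 0 h Igfbp1 (14.6 against 243), Igfbp2 (31.7 against 391) and Igfals (12.2 against 109) are lowest in the red class relative to the rest, while Jak2 (165 against 69.4) is higher there.

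The last question was how open the rest of the pathway was. Among 15 partners of GH signalling, which include other kinases, phosphatases and adaptors, 1 was at least 2-fold lower at 48 h, 1 at 72 h and none at 96 h, beside 1.89%, 6.03% and 9.61% of all genes. None was 2-fold higher at any time, beside 6.7%, 11.8% and 6.15% of all genes. The 1 was Bcl6, a repressor known to oppose STAT5 at shared sites in liver, with 371 CPM at 0 h, 165 at 48 h, 154 at 72 h and 226 at 96 h over 35.9, 21.6, 19.7 and 13.3 kb. Its undamaged level was the highest. The median log2 ratio of this list was 0.08, -0.07 and 0.10, near that of all genes.

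Of 8 genes known to be higher in male than in female liver under pulsatile GH, 7 passed the minimum count. Over all 8, at least 2-fold lower were 2 at 48 h, 5 at 72 h and 4 at 96 h, beside 1.89%, 6.03% and 9.61% of all genes. At least 2-fold higher were 2, at 48 h only (6.7% of all genes). The median log2 ratio was -0.46, -1.22 and -1.35, beside -0.03, 0.00 and 0.08 over all genes, but per kb of peak -0.25, 0.01 and 1.103, beside -0.21, 0.17 and 1.26. Slco1a1, an organic anion transporter, had 203 CPM at 0 h, 63.3 at 48 h, 36.2 at 72 h and 10.7 at 96 h, lower in each library than in the one before. Its covered length followed the same order (54.7, 18.6, 9.49 and 1.42 kb). Selenbp2, a selenium-binding protein gene, had 45.8, 120, 27.0 and 13.2 CPM over 8.08, 21.3, 4.96 and 1.14 kb, high at 48 h as Igf1 was. Mup20, a major urinary protein gene, had 26.6, 19.0 and 0.647 CPM over 4.27, 3.97 and 0.202 kb at 0, 48 and 72 h and was listed with no peak at 96 h, and Cyp4a12a had 4.36, 1.47 and 1.86 CPM over 1.12, 0.491 and 0.439 kb and no peak at 96 h. These last belong to families of near-identical copies, where reads can be lost or shared, and their levels are uncertain.

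Of 8 genes known to be higher in female liver, 7 passed the minimum count. Over all 8, none was at least 2-fold lower at 48 h, 2 were at 72 h and 2 at 96 h (1.89%, 6.03% and 9.61% of all genes). At least 2-fold higher were 1 at 48 h, 1 at 72 h and none at 96 h (6.7%, 11.8% and 6.15% of all genes). A1bg had 5.67 CPM at 0 h and 12.1, 12.3 and 6.29 CPM later, over 1827, 3254, 3002 and 562 bp. Cyp2b13, a cytochrome P450 gene, had 20.8, 15.8, 9.22 and 9.17 CPM over 4.06, 3.91, 1.40 and 0.736 kb. Sult3a1, a sulfotransferase gene, had 1.97 and 2.05 CPM over 0.707 and 0.715 kb at 0 and 48 h and was listed with no peak after it. The median log2 ratio of the list was -0.01, -0.12 and -0.56, beside -0.03, 0.00 and 0.08 over all genes, and per kb of peak -0.23, 0.30 and 1.23, beside -0.21, 0.17 and 1.26. For the promoter alone, over the 5 genes with a value, it was 0.69, 0.47 and -0.54, beside -0.12, -0.05 and 0.15 over all genes.

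Among 10 other IGF system genes, 1 was at least 2-fold lower at 48 h and 4 each at 72 and 96 h (1.89%, 6.03% and 9.61% of all genes). At least 2-fold higher were none at 48 h, 2 at 72 h and 1 at 96 h (6.7%, 11.8% and 6.15% of all genes). The median log2 ratio was 0.15, 0.25 and -0.57, and per kb of peak -0.19, 0.08 and 1.24. For the promoter alone the median was 0.66, 1.09 and -0.82, beside -0.12, -0.05 and 0.15 over all genes. Insr, the insulin receptor gene, had 396, 303, 179 and 168 CPM over 95.1, 71.8, 33.0 and 13.8 kb. Igfbp4, another binding protein gene of hepatocytes, had 249, 139, 95.6 and 110 CPM. At 48 h it too was lower (log2 -0.84) at an almost equal length (log2 -0.01). Igf2, the fetal growth factor gene, had 14.9, 27.4 and 34.1 CPM over 5.71, 9.20 and 9.43 kb and no peak at 96 h. Igfbp3, the neighbour of Igfbp1, had 251 CPM at 0 h and 13.9, 15.2 and 11.4 CPM later, but at 0 h the peak of Igfbp1 reached into it and was counted whole, and in proportion to the length inside the window the log2 ratios were -1.0, -0.90 and -1.29.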

How the data were processed

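scATAC-Seq libraries of 4 time points were analysed, 1 per time point. The authors made the deposited counts (whole-number transposase cut sites per peak and barcode, not normalized) with Cell Ranger ATAC, version 1.1.0 per the file headers, on mm10 per the submitters' processing notes, and called peaks in each library separately. Between 87.3% and 88.6% of values were even, as a fragment adds 2 counts. Intervals therefore treat 2 counts as 1 fragment.

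Barcodes with at least 1000 counts were summed per library. No doublet caller was run, and leaving out the deepest 5% of barcodes stood in for it. Whole peaks touching a gene body (GENCODE vM21) or 2 kb upstream were added up and divided by the library total (CPM). Log2 ratios used a pseudocount of 5 after scaling all totals to 14935507. All peaks ended inside the GRCm38.p6 chromosomes. Named from other lists were at most 4 genes with the largest ratio past 2-fold. The genes with the nearest ratios to Igf1 and Igfbp2 were also named, and 1 of them is not reported here. The genes, lists and tests were chosen with earlier results of these data known. Steps were tested on simulated data. Python 3.11.15, NumPy, SciPy and pandas were used. No replicates exist, so the depth limits only the counting error.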

Additional observations from a re-analysis of the deposited data

Results flagged for a closer look

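Along the zonal order 2 genes lay on opposite sides in different libraries, each with a counting interval that left out 0. Ghr was higher in the pericentral-high tertile at 48 h (log2 0.22) and lower at 0 h (-0.20) and 96 h (-0.27). Stat5b was higher there at 48 h (0.24) and lower at 0 h (-0.085). The difference between libraries was not tested, as each time point had 1 library. Within the interquartile range of depth the values of Ghr were -0.17, 0.20, 0.01 and -0.58 at 0, 48, 72 and 96 h, and those of Stat5b -0.14, 0.21, 0.01 and 0.02.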

How the results depend on the processing

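The counts of axis genes at least 2-fold lower (1, 2 and 3 at 48, 72 and 96 h) and higher (0 at each) were the same with a minimum of 3000 counts, every barcode, the deepest 5% or the nonparenchymal-high barcodes left out, thinning, the median ratio set to 0, or counts in proportion to the length inside the window. With binarised counts 0, 0 and 1 were lower and 1 was higher at 96 h. With regions shared by all 4 libraries 1 was lower at 72 h. With near-equal single peaks 0 were lower at 48 and 72 h, no region of Igfbp2 entered, and no axis gene had a value at 96 h. With the promoter alone 3 and 4 were lower at 48 and 72 h. With the total over near-equal regions, which moved the median of all genes to -0.24 at 72 h and -0.67 at 96 h, 5 and 7 were lower at those times. Per kb of peak 1 and 0 were lower at 72 and 96 h and 6 higher at 96 h. With a 1.5-fold limit 1 was higher at 48 h and 2, 5 and 6 were lower.

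Per kb of peak, 15 of the 30 log2 ratios took the other sign, binarised 8, over near-equal single peaks 5 of 16, thinned 4, in proportion to the length inside the window 3, and under each other setting at most 2. Of those past 2-fold, the ratios that did so per kb were Ghr at 96 h (1.99), Stat5b at 72 and 96 h (0.16 and 1.05) and Igfbp2 at 96 h (0.043), since the length ratios were lower than the count ratios. Binarised, Igfbp2 was at 0.47, 0.97 and 0.10, and the cause was not tested. Igfbp1 between zonal tertiles at 96 h was -0.030 within the interquartile range of depth, an alternative chosen after seeing the data. No paired analysis was possible because each group has 1 library.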

Other observations

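The genes whose 3 log2 ratios lay nearest to those of Igfbp2, by Euclidean distance over 3 time points, were Cyp2c67 (distance 0.14; -1.31, -1.30 and -2.47), Ube2b (0.15; -1.09, -1.41 and -2.57) and Pnoc (0.28; -1.27, -1.39 and -2.73). Of these Ube2b, a ubiquitin-conjugating enzyme gene, had the most counts, with 103 CPM at 0 h and 48.4 and 38.5 CPM at 48 and 72 h. Among the genes nearest to Igf1 were Zfp296 (0.11) and Nsd3 (0.13), a histone methyltransferase gene. Nsd3 had 187, 270, 158 and 114 CPM at 0, 48, 72 and 96 h. All of these values rest on the same 4 libraries as those of the axis genes.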
